A study of Sus scrofa with 6 samples.

Results

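Cyclic nucleotide phosphodiesterases were followed in the subcutaneous fat of Duroc, Landrace and Yorkshire hybrid pigs. The control diet is represented by 3 libraries. The other 3 are from pigs whose feed held 400 mg/kg of resveratrol, a polyphenol of plants. Age, sex and feeding time are not given in the labels, and whether each library is a separate animal is not stated either, so p-values cover only the spread among these libraries, which may be technical. The 10 members, PDE1A, PDE3A, PDE3B, PDE4A, PDE4B, PDE4C, PDE4D, PDE5A, PDE7B and PDE8A, were taken by gene symbol from the 22844 rows of the deposited tables, and each symbol matched 1 row. PDE4C lay under the filter on low values (a mean of at least 0.5 TPM, an abundance scaled for transcript length and library total), so 9 of the 10 members were among the 14908 rows tested.

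Phosphodiesterases break down the second messengers cAMP and cGMP and so end the signals that hormones start through adenylyl and guanylyl cyclases. In fat cells cAMP activates protein kinase A, which switches on the lipases that release fatty acids, and insulin opposes this release in large part by activating PDE3B. The members differ in substrate: the PDE4, PDE7 and PDE8 enzymes act on cAMP, PDE5A on cGMP, and the PDE1 and PDE3 enzymes on both. Resveratrol has been reported to bind and inhibit enzymes of this family, and the data here measure their RNA and not their activity.

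Control 2 was the shallowest library (16251536 reads) and resveratrol 2 the deepest (37943877). Control 2 stood apart on the first principal component (33.6% of variance), and the diet differences of the members were therefore also computed without it. As the labels say, the tissue had the RNA of fat: the adipocyte markers summed to between 17687 and 27292 TPM in every library, led by FABP4 and ADIPOQ, while the 5 skeletal muscle markers measured, led by TNNI2 and CKM, summed to at most 1.89 TPM. Tendon and cartilage markers, led by THBS4 and COMP, summed to 310.1, 24.5 and 59.9 TPM in control 1, 2 and 3, against 14.4 to 23.6 TPM in the resveratrol libraries.

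PDE3B, the phosphodiesterase of the insulin response in fat cells, was the most abundant member in every library, and PDE4C the least. By mean TPM over the 6 libraries the order was PDE3B (40.1 TPM), PDE1A (18.6), PDE3A (15.3), PDE8A (13.6), PDE4A (9.45), PDE5A (8.17), PDE7B (7.21), PDE4B (6.40), PDE4D (4.65) and PDE4C (0.223). The order was the same in the control libraries alone and in the resveratrol libraries alone. PDE3B was separated from PDE1A, and PDE4D from PDE4C, by ranges that did not overlap. Every other pair of neighbours in this order overlapped in range, although PDE1A exceeded PDE3A, PDE8A exceeded PDE4A, PDE5A exceeded PDE7B and PDE4B exceeded PDE4D within each of the 6 libraries. PDE3A exceeded PDE8A in 4 of 6 libraries, PDE4A exceeded PDE5A in 5 and PDE7B exceeded PDE4B in 4.

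**Figure D1:**
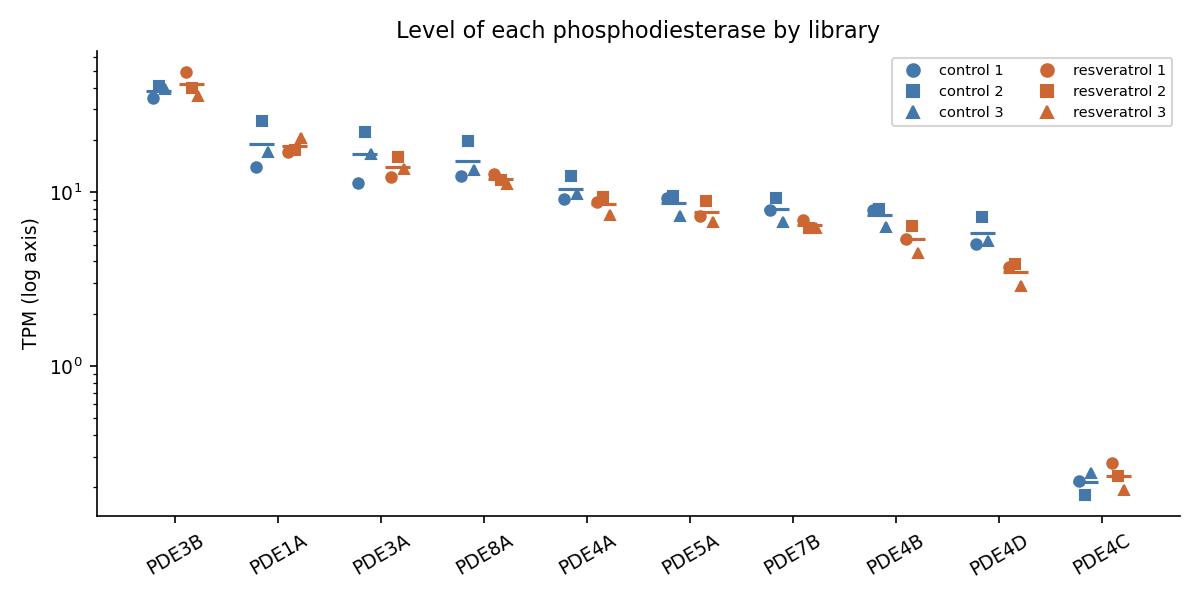
TPM of each member in each library on a log axis, with members ordered by mean level, control libraries in blue and resveratrol libraries in orange, and a bar at each group's mean. PDE3B lies above all others, and PDE4D is the member whose orange points all lie below its blue points.

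The comparison asked which members differed between the diets. PDE4D was the member with the largest difference: all 3 resveratrol libraries had less of it than any control library, and the fitted difference between the groups was 36.5%. PDE4B, PDE4A and PDE7B, also cAMP-specific, lay below every control library in scaled counts too, but by less. In scaled counts 6.97% of all rows lay lower without overlap. These 3 members overlapped in TPM, and their 95% intervals included 0. The cAMP-specific PDE8A overlapped on both scales, as did PDE4C, which lay under the filter. PDE3B averaged higher in resveratrol with overlapping groups. No member passed the adjusted threshold of 0.05 in edgeR's quasi-likelihood test, in which 0 of the 14908 rows passed (0%), nor in DESeq2, which called 40 rows (0.268%). At an unadjusted p under 0.05 PDE4D alone of the 9 tested members was lower, where 4.32% of all rows were, and 0 members were higher, where 2.21% of all rows were. Over the 9 members 7 log2 fold changes were negative and the median was -0.19, against 51.2% negative and a median of -0.01 over all rows tested. The members were chosen with earlier results of these data known, so these counts are no independent evidence of a direction.

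**Figure D2:**
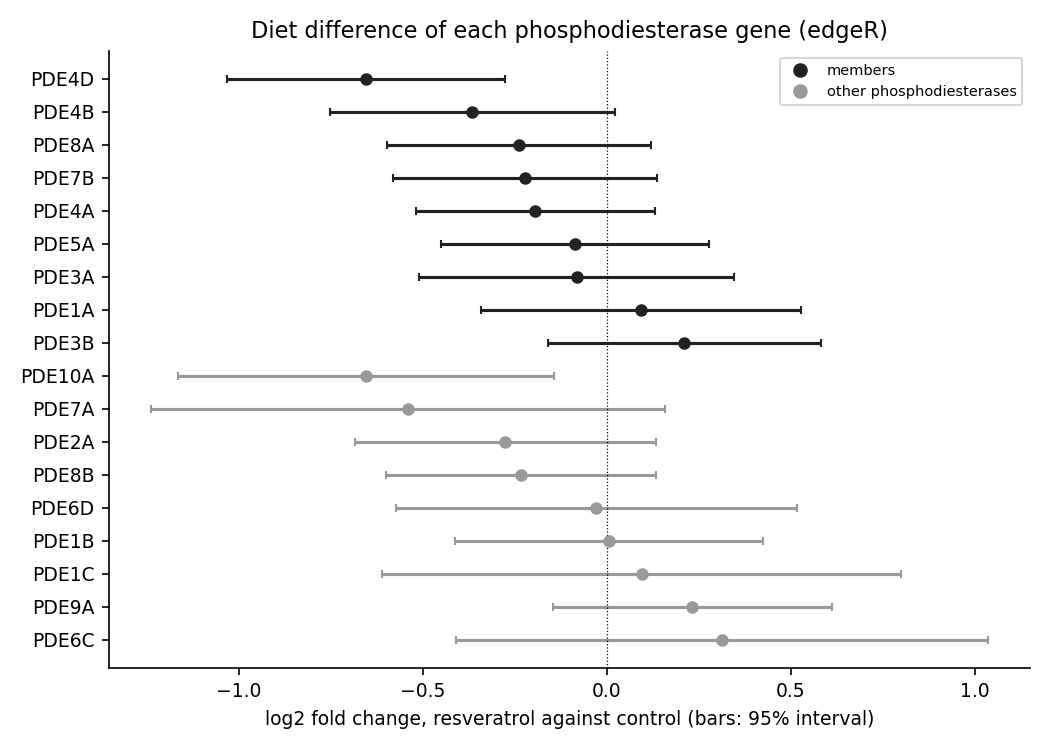
Log2 fold change of resveratrol against control for each tested phosphodiesterase gene, with its 95% interval from edgeR, members in black and the other phosphodiesterases in grey. The intervals of PDE4D and PDE10A lie wholly below 0, and neither gene passed the adjusted threshold.

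The PDE4 enzymes are the main cAMP-specific phosphodiesterases of many cells and the targets of rolipram, and their long forms are activated by protein kinase A. PDE4D (ENSSSCG00000016929.3) measured 5.05, 7.17 and 5.25 TPM in control 1, 2 and 3, against 3.72, 3.85 and 2.90 TPM in resveratrol 1, 2 and 3. The lowest control library thus stood above the highest resveratrol library. Between 351 and 545 reads per library lay behind these values. After TMM scaling, a trimmed mean that sets libraries on a common footing, its counts were 18.4 ± 1.41 CPM (counts scaled to the library total) in control and 11.7 ± 1.21 CPM in resveratrol (SD, n = 3 each). The log2 fold change was -0.65 (SE 0.17, 95% interval -1.03 to -0.28), with an unadjusted p = 0.00311 and an adjusted p = 0.733 in edgeR. By unadjusted p it ranked 59 among the 14908 rows. DESeq2 gave an adjusted p = 0.147. In bulk tissue, fewer cells of a type and less RNA per cell cannot be told apart.

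The direction of the PDE4D difference did not rest on a single library. With each library left out in turn its log2 fold change lay between -0.71 and -0.56, and the unadjusted p in edgeR between 0.00571 and 0.0187. The adjusted p in these edgeR fits ran from 0.374 without control 2 to 0.999956 without resveratrol 3. The log2 fold change is the value given next. It was -0.59 without control 2, the library that stood apart, and -0.69 without control 1, the library with the highest tendon and cartilage markers. Of those markers 7 of 7 tested were lower in resveratrol, 4 of them at an unadjusted p under 0.05 in edgeR, where 4.32% of all rows were. Leaving out control 1 did not level them: they summed to 24.5 and 59.9 TPM in control 2 and 3, against 14.4 to 23.6 TPM with resveratrol. The part of the tendon and cartilage markers in the result was not tested. Macrophage and monocyte markers, led by C1QA and TYROBP, were higher with resveratrol in 10 of 10, with sums of 428.9 to 509.0 TPM in control, against 526.3 to 778.5 TPM with resveratrol. Of these 10, 4 were higher at an unadjusted p under 0.05 in edgeR, where 2.21% of all rows were. Without overlap 3 lay higher in scaled counts and 2 in TPM, where 5.67% and 4.11% of all rows did. The part of the macrophage and monocyte markers in the result was not tested. Adipocyte markers were higher with resveratrol in 8 of 9, opposite in direction to PDE4D, and 1 was lower, with a log2 fold change of -0.67. ADIPOQ and GPD1 lay higher without overlap (log2 fold changes 0.36 and 0.53), GPD1 being named after its value was seen. In scaled counts 2 of the 9 lay higher without overlap, where 5.67% of all rows did. In TPM 2 did as well, where 4.11% of all rows did. The part of the adipocyte markers was not tested either.

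PDE4B (ENSSSCG00000003805.4), the PDE4 form of leukocytes and of inflammatory responses, measured 7.89, 8.02 and 6.31 TPM in the control libraries and 5.36, 6.35 and 4.48 TPM in the resveratrol libraries. Control 3 and resveratrol 2 met in TPM, so the groups overlapped narrowly. In scaled counts they did not, with 19.5 ± 2.21 against 15.1 ± 1.92 CPM. The log2 fold change was -0.37 (SE 0.17, 95% interval -0.75 to 0.02, edgeR unadjusted p = 0.0615, adjusted p = 0.733). It moved between -0.47 without resveratrol 2 (unadjusted p = 0.0486) and -0.27 without control 1.

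PDE4A (ENSSSCG00000013642.3), the most abundant PDE4 gene here, measured 9.08, 12.4 and 9.71 TPM in control 1, 2 and 3. In resveratrol 1, 2 and 3 it measured 8.73, 9.44 and 7.35 TPM, so that resveratrol 2 lay above control 1. Scaled counts did not overlap, at 41.8 ± 2.41 against 36.5 ± 2.23 CPM. Its log2 fold change was small, at -0.19 (SE 0.15, 95% interval -0.52 to 0.13, edgeR adjusted p = 0.758).

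PDE4C (ENSSSCG00000036363.1), the remaining gene of the subfamily, had only 8 to 34 reads per library. It measured 0.217, 0.180 and 0.243 TPM in control, against 0.276, 0.231 and 0.193 TPM with resveratrol, and the groups overlapped. Tested with every row that had at least 1 read, its log2 fold change was 0.25 (SE 0.48, edgeR unadjusted p = 0.603). That shows no difference and does not show that the diets were alike.

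The share of PDE4D in the summed TPM of the PDE4 genes, for which no test was made, was 22.7%, 25.8% and 24.4% in control 1, 2 and 3 and 20.5%, 19.4% and 19.4% in resveratrol 1, 2 and 3. A share within a library does not depend on how libraries are scaled against each other, and the groups did not overlap. Since PDE4D was lower by more than PDE4A and PDE4B, a lower mean share follows from the values above and is no separate evidence. In scaled counts it was 22.8 ± 1.13% against 18.2 ± 0.611%. The rows sum several annotated transcripts, 7 for PDE4D, 6 for PDE4A, 4 for PDE4B and 3 for PDE4C, so long and short forms could not be separated. The PDE4 genes are also close paralogs, and how reads shared between them were counted is not given in the sources used here.

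PDE7B (ENSSSCG00000004165.3), a cAMP-specific enzyme with no PDE4-type regulatory domains, measured 7.87, 9.29 and 6.75 TPM in control, against 6.93, 6.25 and 6.19 TPM with resveratrol. Only control 3 and resveratrol 1 crossed. Its scaled counts were 17.4 ± 1.31 against 14.9 ± 0.928 CPM and did not overlap. The log2 fold change was -0.22 (SE 0.16, 95% interval -0.58 to 0.14, edgeR adjusted p = 0.754).

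PDE8A (ENSSSCG00000001810.3), a cAMP-specific enzyme of high affinity, measured 12.4, 19.8 and 13.4 TPM in control, against 12.8, 11.8 and 11.1 TPM with resveratrol. Control 2 was far above the other 5 libraries, which lay close together. The log2 fold change of -0.24 (SE 0.16, edgeR adjusted p = 0.750) became -0.11 without control 2.

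**Figure D3:**
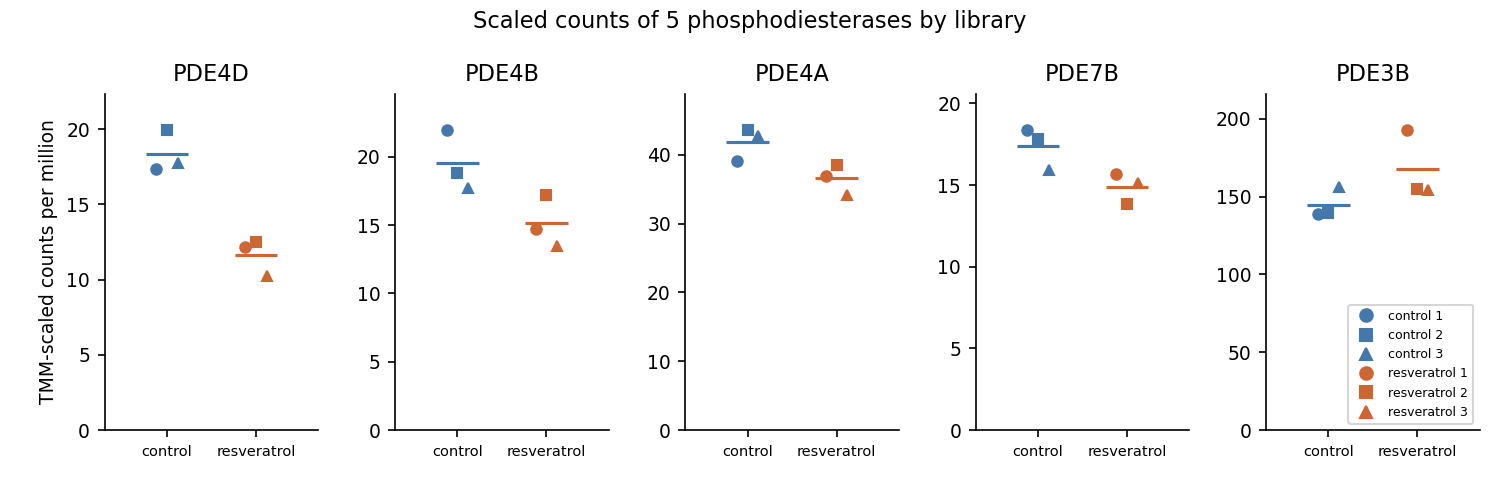
TMM-scaled CPM of PDE4D, PDE4B, PDE4A, PDE7B and PDE3B in each library, each panel from 0 on its own axis, with a bar at each group's mean. The resveratrol libraries lie below all control libraries for the first 4 genes, with the widest gap for PDE4D, and the groups overlap for PDE3B.

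In scaled counts 4 of the 9 tested members, PDE4A, PDE4B, PDE4D and PDE7B, lay lower in all resveratrol libraries than in any control library, where 6.97% of all rows did. In TPM, which is not TMM-scaled, PDE4D alone did, where 8.15% of all rows did. No member lay higher without overlap on either scale, where 5.67% of rows did in scaled counts and 4.11% in TPM. Since the members were chosen with earlier results known, these counts too are no independent evidence of a direction.

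PDE3B (ENSSSCG00000013388.3), which insulin activates in fat cells through the kinase AKT, measured 34.7, 41.0 and 39.3 TPM in control 1, 2 and 3, against 49.3, 40.1 and 36.0 TPM in resveratrol 1, 2 and 3. Resveratrol 1 was the highest library, and the other 5 lay between 34.7 and 41.0 TPM. Scaled counts averaged 144.7 ± 9.87 CPM in control and 167.4 ± 22.1 CPM in resveratrol. The log2 fold change was 0.21 (SE 0.17, 95% interval -0.16 to 0.58, edgeR adjusted p = 0.771), and without resveratrol 1 it was 0.10. The row gathers 9 annotated transcripts, more than that of any other member.

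PDE3A (ENSSSCG00000028662.2), the PDE3 form of platelets, heart and vascular smooth muscle, measured 11.3, 22.2 and 16.6 TPM in control, against 12.2, 15.9 and 13.7 TPM with resveratrol. The control libraries spanned the whole range of the resveratrol libraries. Its log2 fold change was -0.08 (SE 0.19, 95% interval -0.51 to 0.35), and the sign turned without control 3 (0.02) or resveratrol 1 (0.03). Smooth muscle and pericyte markers, led by TAGLN and ACTA2, summed to between 471.3 and 690.3 TPM in control, against between 297.4 and 879.7 TPM with resveratrol, with 6 of 12 higher.

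Of the PDE3 pair PDE3B held 75.5%, 64.9% and 70.3% of the TPM in control 1, 2 and 3 and 80.2%, 71.6% and 72.5% in resveratrol 1, 2 and 3. Control 1 lay above resveratrol 2 and resveratrol 3, so the shares overlapped. Their means were 70.2 ± 5.29% and 74.7 ± 4.72%. The difference of 4.52 percentage points ranged from 1.80 without resveratrol 1 and 1.87 without control 2 to 7.16 without control 1.

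PDE1A (ENSSSCG00000023924.2), which calcium and calmodulin activate, measured 13.9, 25.7 and 17.0 TPM in control, against 17.0, 17.5 and 20.5 TPM with resveratrol. Control 1 was the lowest library and control 2 the highest, with the resveratrol libraries between them. Its log2 fold change was 0.09 (SE 0.20, 95% interval -0.34 to 0.53, edgeR adjusted p = 0.924), which was 0.26 without control 2 and -0.05 without control 1.

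PDE5A (ENSSSCG00000009106.3), the cGMP-specific enzyme that sildenafil inhibits, measured 9.27, 9.52 and 7.25 TPM in control, against 7.30, 8.94 and 6.74 TPM with resveratrol. The groups overlapped, and the log2 fold change was -0.09 (SE 0.16, 95% interval -0.45 to 0.28, edgeR adjusted p = 0.917). Without control 1 it was 0.02. For PDE3A, PDE1A and PDE5A the intervals allow a difference in either direction and do not show that the diets were alike. The same holds for PDE3B, PDE4A, PDE4B, PDE7B and PDE8A (95% interval -0.60 to 0.12 for PDE8A).

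**Figure D4:**
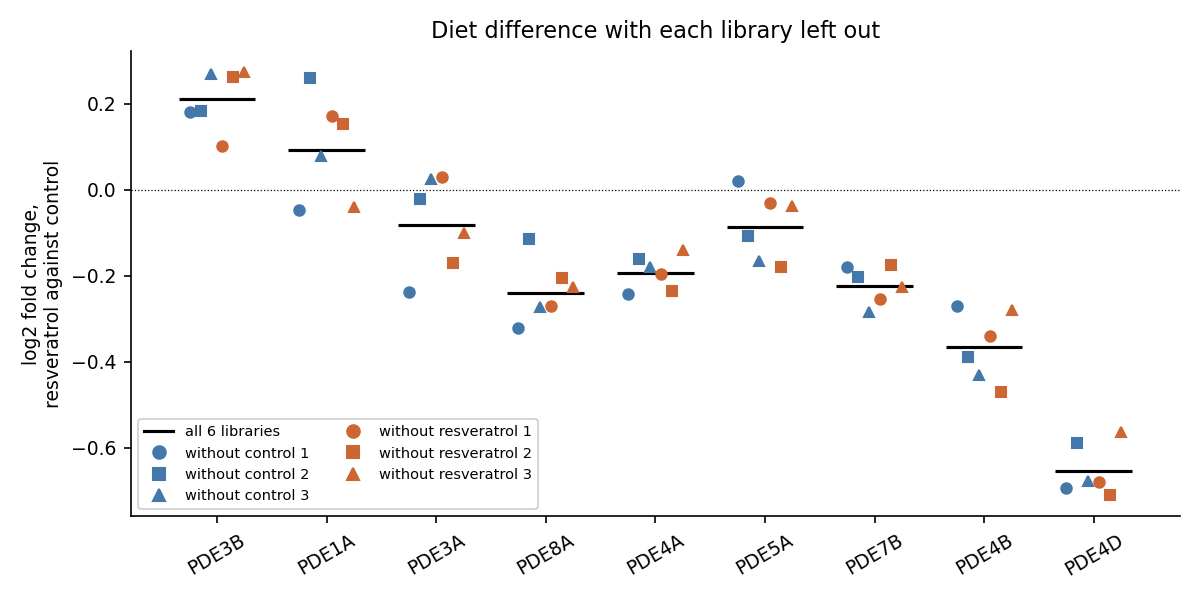
Log2 fold change of each tested member with all 6 libraries (black bar) and with each library left out in turn (points). All points of PDE4D lie below those of every other member, and points of PDE1A, PDE3A and PDE5A lie on both sides of 0.

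Grouped by substrate, the summed TPM of the cAMP-specific members (PDE4A, PDE4B, PDE4C, PDE4D, PDE7B and PDE8A) was 42.5, 56.9 and 41.7 TPM in control 1, 2 and 3. It was 37.8, 37.9 and 32.2 TPM in resveratrol 1, 2 and 3, below each control library. The log2 difference of this sum was -0.38, which became -0.23 without control 2 and -0.28 in TMM-scaled CPM. The members that act on both messengers, PDE1A, PDE3A and PDE3B, summed to 73.9 ± 14.5 TPM in control, against 74.1 ± 4.20 TPM with resveratrol. Their log2 difference of 0.02 was 0.16 without control 2, -0.12 without control 1, -0.02 without resveratrol 1 and 0.11 in TMM-scaled CPM. All 10 together summed to 129.6 ± 22.8 TPM and 117.7 ± 7.60 TPM, with control 2 the highest at 155.3 TPM. PDE3B made up 29.9 ± 3.09% of this sum in control and 35.4 ± 3.89% in resveratrol, and the PDE4 genes 18.5 ± 1.25% and 14.9 ± 1.45% (SD, n = 3 each). No test was made of these sums, since the members were chosen with results known.

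**Figure D5:**
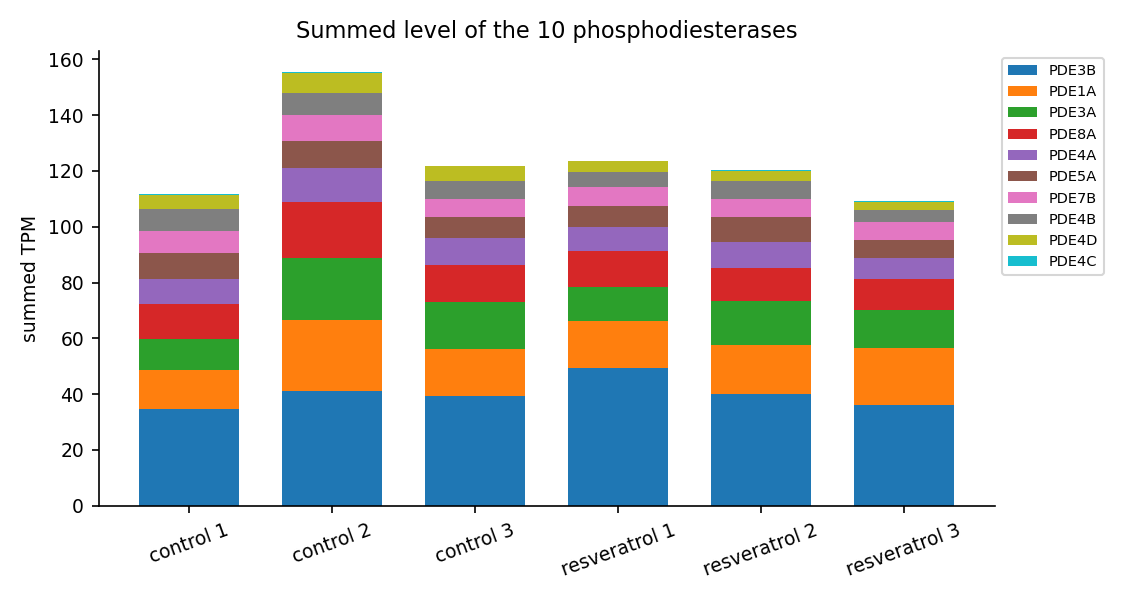
Summed TPM of the 10 members in each library, stacked by gene from the most abundant at the base. PDE3B forms the largest part of each bar, and the bar of control 2 is the tallest at 155.3 TPM.

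Control 2 was the library with the highest TPM for 8 of the 9 tested members (88.9%), all but PDE3B, where 47.8% of all tested rows had their highest TPM there. In scaled counts it was highest for 3 of the 9 tested members, where 28.1% of all rows were. The height of control 2 in TPM was shared by many rows, though by a larger share of the members.

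Of the 14 other phosphodiesterase genes listed, 12 were measured and 9 tested, with 5 lower, 4 higher and 1 of them, PDE10A, lower at an unadjusted p under 0.05. Over all rows tested 51.2% were lower, 4.32% lower and 2.21% higher at that p, and the counts of this and the following lists are to be read against these shares. PDE10A, an enzyme of both messengers best known from striatal neurons, averaged 2.69 ± 0.770 TPM in control, against 1.59 ± 0.344 TPM with resveratrol. Its log2 fold change was -0.65 (SE 0.23, edgeR unadjusted p = 0.0172, adjusted p = 0.733), with scaled counts that did not overlap. PDE7A, the paralog of PDE7B, had a log2 fold change of -0.54 (SE 0.31), PDE2A, which cGMP stimulates, one of -0.28 (SE 0.18), and PDE8B, the paralog of PDE8A, one of -0.23 (SE 0.17). PDE2A, at 17.0 ± 3.06 TPM in control, exceeded the control means of 8 of the 10 members. PDE9A, a cGMP-specific enzyme, had a log2 fold change of 0.23 (SE 0.17). The log2 fold changes of PDE6C, PDE1C, PDE1B and PDE6D, a prenyl-binding chaperone despite its name, were 0.31, 0.09, 0.01 and -0.03.

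The rest of the pathway was read from lists chosen, like the members, with earlier results of these data known, and no gene of these lists passed the adjusted threshold in edgeR. Of 11 tested adenylyl cyclases and inhibitory G protein subunits, 9 were lower, with 1 lower at an unadjusted p under 0.05. ADCY3 averaged 3.54 ± 0.427 TPM in control, against 2.42 ± 0.566 TPM with resveratrol (log2 fold change -0.47, edgeR unadjusted p = 0.0426). The log2 fold changes of ADCY2, ADCY9 and ADCY6 were -0.47, -0.17 and -0.06. Among 9 tested genes of cGMP synthesis, 6 were lower and 0 had an unadjusted p under 0.05. The values of GUCY1A1, a subunit of the nitric oxide receptor, NOS2, NPR2 and NPR1 were -0.35, -0.27, -0.18 and 0.08 on the log2 scale.

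Of 14 tested effectors of cAMP and cGMP, 10 were higher, 1 of them at an unadjusted p under 0.05. That gene was RAPGEF4, a cAMP-activated exchange factor, at 7.99 ± 2.01 TPM in control, against 9.67 ± 0.372 TPM with resveratrol (log2 fold change 0.39, edgeR unadjusted p = 0.0353). PRKACA and PRKACB, the catalytic subunits of protein kinase A, had log2 fold changes of -0.28 and 0.19, and PRKAR2B, its main regulatory subunit in fat, one of 0.25. PKIG, an inhibitor of that kinase, had one of -0.52 (SE 0.24).

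Among 22 tested anchors and partners, 12 were lower and 10 higher. AKAP12, a scaffold that holds protein kinase A, averaged 21.7 ± 2.55 TPM in control, against 12.03 ± 3.28 TPM with resveratrol (log2 fold change -0.76, SE 0.20, edgeR unadjusted p = 0.00351, adjusted p = 0.733). RACK1, a ribosomal scaffold that binds PDE4D, and ABHD15, a partner of PDE3B in fat cells, had log2 fold changes of 0.39 and 0.28. Of 12 tested genes of insulin signalling upstream of PDE3B, 10 were lower and 0 had an unadjusted p under 0.05. PIK3R2, PIK3R1 and PDPK1 had log2 fold changes of -0.44, -0.29 and -0.26, and those of INSR and AKT2 were -0.03 and 0.26.

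CREB is a transcription factor through which cAMP acts on genes. The list of CREB factors, partners and cAMP-induced genes includes CREB1 itself and ATF1. Of its 18 tested genes 16 were lower, 9 of them at an unadjusted p under 0.05 in edgeR. Their median log2 fold change was -0.47, where 51.2% of all rows were lower and 4.32% lower at that p. NR4A1 and PER1 had log2 fold changes of -1.23 and -0.79, and CRTC3, a coactivator of CREB, one of -0.58 (SE 0.16, edgeR unadjusted p = 0.00473). Many of these genes also answer to stimuli other than cAMP or to the clock, PDE10A stands in this list too, and several were known from earlier results to be lower, so the count is no independent evidence of its direction. The summed TPM of the list was 730.05, 790.4 and 748.7 TPM in control 1, 2 and 3, against 521.3, 656.7 and 477.6 TPM in resveratrol 1, 2 and 3. Resveratrol 3 had the lowest sum. In TPM it was also the lowest library for PDE4A, PDE4B, PDE4D, PDE5A, PDE7B and PDE8A, and for genes of the other lists. The share of all rows lowest in that library was not counted, so this cannot be read as a trait of the members.

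The remaining marker lists are given for the cell types that express these enzymes. Endothelial markers, led by PECAM1 and CDH5, summed to between 250.1 and 337.9 TPM in control, against between 234.1 and 261.3 TPM with resveratrol, with 5 of 7 lower. In scaled counts 3 of these 7 lay lower without overlap and 1 higher, where 6.97% and 5.67% of all rows did. In TPM 1 lay lower without overlap and 0 higher, where 8.15% and 4.11% of all rows did. Lymphocyte markers, led by NKG7 and CD3D, summed to between 21.3 and 23.9 TPM in control, against between 17.6 and 39.3 TPM with resveratrol. Fibroblast and preadipocyte markers, led by COL3A1 and COL1A1, summed to between 4406 and 7643 TPM in control, against between 4034 and 5638 TPM with resveratrol. By gene, 5 of 8 of these were higher, and 5 of 7 tested lymphocyte markers were. The part of these cell types in the PDE4 differences was not tested.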

How the data were processed

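The authors deposited, per the file headers, 1 table per library with whole-number read counts and TPM for 22844 rows. Per the labels' protocols, Trizol RNA went into a lncRNA library kit. The mouse builds mm8 and mm9 and the aligner Bowtie 0.12.2 were named, per the submitters' processing notes, while the rows carry pig identifiers. The sources used here give no pig build, annotation or counter, so no coordinates or sequences are printed. Groups and replicate numbers came from the sample titles. Symbols were matched by Ensembl identifier for 14750 rows.

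The filter kept 14908 rows averaging 0.5 TPM or more. TMM-scaled counts entered the quasi-likelihood test (robust) of edgeR 4.0.16, with Benjamini-Hochberg adjustment over all rows and a threshold of 0.05. The fit was tested on simulated data, in which the changed rows were not of low counts and differed by more than any member did here. Its power for differences of the members' size was not tested. The SE is the log2 fold change divided by the square root of F. Fold changes are resveratrol against control. DESeq2 1.42.0 and limma 3.58.1 on log2 TPM were among the alternatives, in R 4.3.3. Members, gene lists and tests were chosen with earlier results of these data known. Besides the members, the text names the other tested phosphodiesterases, the 3 genes of smallest unadjusted p in each pathway list, the 2 highest markers of each cell type and 9 pathway genes in any case. Of these GNAS was not analysed here.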

Additional observations from a re-analysis of the deposited data

How the results depend on the processing

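The count of rows past the adjusted threshold, 0 in edgeR, was 40 in DESeq2 and 0 to 5 with each library left out, the 5 being without control 2. The 973 rows at an unadjusted p under 0.05 became 403 (without resveratrol 3) to 1681 (without control 3), and 556 without resveratrol 1. The count of members lower at that threshold was 1 to 2 with each library left out, the second being PDE4B without resveratrol 2. PDE4D kept its direction and an unadjusted p under 0.05 in all 17 alternatives (log2 fold change -0.72 to -0.56, adjusted p 0.147 to 0.999956). PDE4A, PDE4B, PDE7B, PDE8A and PDE3B also kept their direction in all 17. Signs turned for PDE1A with limma on log2(TPM + 1) (-0.00059), and with a library left out for PDE1A (-0.046 to 0.26, negative without control 1 or resveratrol 3), PDE3A (-0.24 to 0.030, positive without control 3 or resveratrol 1) and PDE5A (-0.18 to 0.021, positive without control 1). The cause was not tested. With the replicate number as a block, 1259 rows had an unadjusted p under 0.05 and PDE4D had a log2 fold change of -0.66. After each group's mean was subtracted from each gene's log2 scaled counts, the remainders of same-numbered libraries correlated at 0.157, 0.0741 and 0.200. These are not correlations of whole libraries. Each remainder matched best the one of its own number in the other group. That is a hint from the data that the labels do not state, and it does not show that the libraries were paired. PDE4D rested on 351 to 545 reads per library and PDE4C on 8 to 34, which limits the precision of the latter most.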

Other observations

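GUCY2C, the guanylyl cyclase receptor best known from the intestine, was listed with the genes of cGMP synthesis and is named after its value was seen. Its row averaged 42.7 ± 10.1 TPM in control, against 42.5 ± 4.13 TPM with resveratrol (SD, n = 3 libraries each), above PDE3B in mean level, with a log2 fold change of 0.10 (SE 0.21, edgeR adjusted p = 0.925). The symbol rests on the gene identifier alone and the identity of the row was not checked against sequence. NPR1, the receptor for atrial natriuretic peptide, averaged 86.6 ± 12.6 and 86.4 ± 8.67 TPM, while NPR3, the clearance receptor, averaged 5.65 ± 1.02 and 5.32 ± 0.620 TPM.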
